A study of Homo sapiens with 6 samples.

Results

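The epidermal growth factor receptor (EGFR), 5 of its ligands (AREG, EREG, HBEGF, TGFA and BTC) and the proteases ADAM10 and ADAM17 were followed by name through a table of transcript levels from human xenograft tumors. These were 8 of the 60606 genes in the table, and each name matched 1 row. RNA came from 6 tumors of MDA-MB-231, a human breast cancer line, grown from wild-type cells mixed with Matrigel under the skin of the left flank of NSG mice (NOD/SCID/IL2Rγ-null), which lack T, B and natural killer cells. The control group was 3 tumors that received no radiation. The irradiated group was 3 tumors given 10 Gy of X-rays locally in a single dose at a volume of about 800 mm3 and collected 3 days later. The age and sex of the mice, and the size of the controls at collection, are not in the sources used here, and the labels do not say that each tumor came from its own animal, so a p-value here speaks of the spread among these libraries, which may be technical.

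EGFR is a receptor tyrosine kinase of the ERBB family. Its ligands are made as membrane-spanning precursors, and a metalloprotease cuts them free in the step called ectodomain shedding. ADAM17 is the main sheddase of AREG, EREG, HBEGF and TGFA, while ADAM10 is the main sheddase of BTC. Bound receptor pairs signal through adaptors to the RAS to ERK and PI3K to AKT kinases and are then taken up and degraded, and ERK induces inhibitors that dampen the same pathway. Triple-negative breast cancers, to which MDA-MB-231 belongs, often express much EGFR, and ionizing radiation is known to activate the receptor in many cell types. A transcript level measures neither shedding nor receptor activity.

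Levels are TPM (a share of all transcripts, scaled for gene length), so they can be compared between genes. Groups are summarised by the mean ± SD (n = 3). A difference is the irradiated minus the control mean of log2(TPM + 1), a scale that shrinks the changes of low genes. It was tested with limma over the 14140 genes whose mean reached 1 TPM, with Benjamini-Hochberg adjustment over all of them. All 8 genes were above that limit, BTC only through the irradiated tumors, since its control mean was under 1 TPM. A gene is called where the adjusted p is under 0.05, and its groups are said not to overlap if all tumors of one lie above all of the other.

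None of the 8 genes was called in limma (0 of 8, against 2.98% of all tested genes). The unadjusted p was under 0.05 for 2 of them, TGFA and BTC, against 20.5% of all genes. The groups did not overlap in the same 2 genes, both higher in irradiated tumors, against 26.6% of all genes in either direction. In that direction alone the share of all genes was 11.6%, and in the other direction, where the count was 0 of 8, it was 15.0%. The difference was above 0 for 5 genes and below 0 for 3, with a median of 0.32 against -0.056 over all tested genes. Counts as small as 2 of 8 lie near those shares, and BTC had to be higher in irradiated tumors to be tested.

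**Figure D1:**
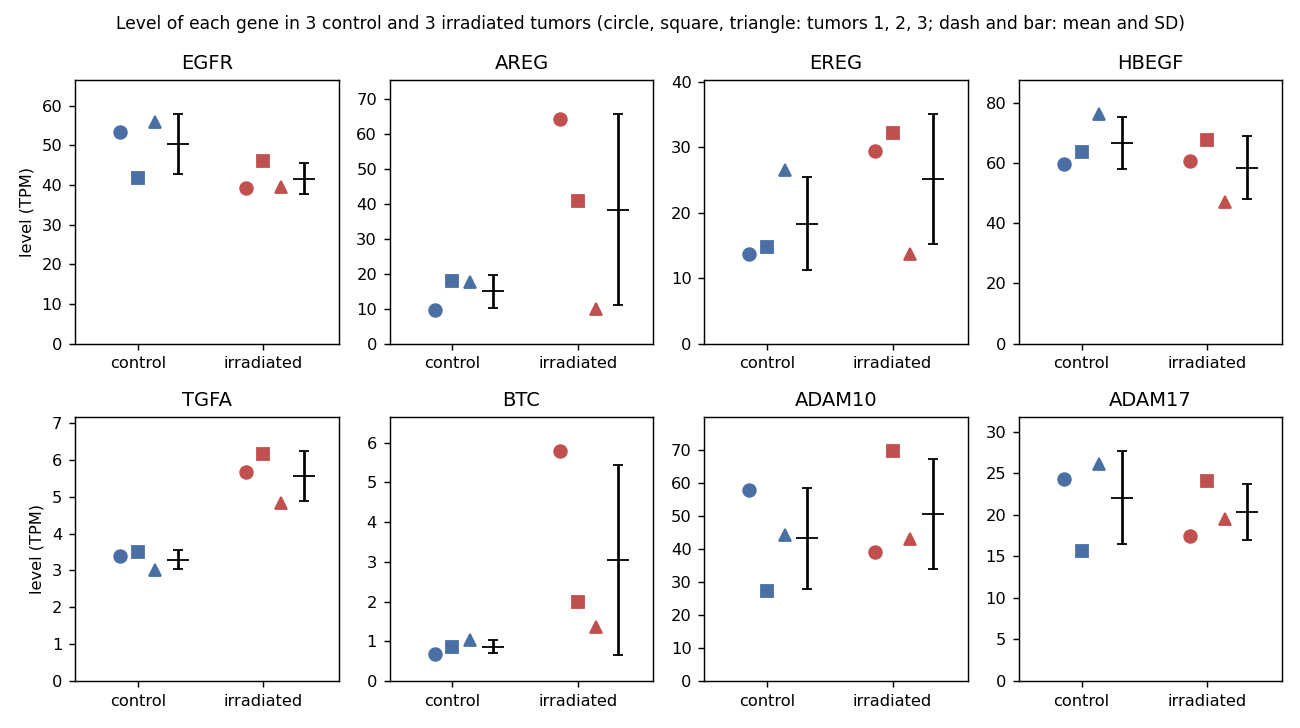
Level in TPM (vertical axes, each starting at 0) of the 8 genes in control (blue) and irradiated (red) tumors; circles, squares and triangles are tumors 1, 2 and 3, and the dash and bar give the mean and SD of each group. TGFA and BTC separate the groups, and AREG spans 9.81 to 64.36 TPM among irradiated tumors.

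The tumors held the basal B markers of the labelled line, and luminal breast markers were mixed. Vimentin (VIM), the mesenchymal filament of basal B breast lines, was at 5283, 4859 and 3797 TPM in controls and 3227, 3148 and 3685 TPM in irradiated tumors. On the luminal list the hormone receptor genes ESR1 and PGR stayed at or below 0.32 and 0.22 TPM, and CDH1 at or below 0.21 TPM. GATA3 and FOXA1 were at 1.59 to 4.34 TPM and EPCAM at 2.90 to 5.10 TPM. KRT8 and KRT18 of that list were high, at 328 to 569 and 428 to 721 TPM over all tumors. Of the marker lists for other cells, 3 of 11 tested skeletal muscle genes were called lower (0 to 9 without single tumors). Over all tested genes 2.98% were called in either direction. The muscle list summed to 259.5 to 648 TPM in controls and 4.59 to 182.3 TPM in irradiated tumors. On the fibroblast list 3 of 7 were called lower (0 to 3 without single tumors), all of them collagens (COL1A1, COL1A2 and COL3A1). That list summed to 479 to 1007 TPM, against 133.4 to 216 TPM, and most of the sum was COL1A1. In 5 of the 7 all irradiated tumors lay below all controls, where 15.0% of all genes did. Beside the collagens these were FAP (log2 difference -0.995, adjusted p = 0.133) and POSTN (-0.73, adjusted p = 0.198). PDGFRB of the same list had a difference above 0 (log2 difference 0.95, adjusted p = 0.211), and DCN was at -0.084. The only keratinocyte marker tested, KRT10, fell, while KRT1 and IVL were listed at 0 in every tumor. The difference was below 0 in all 8 basal B markers, with a median of -0.35, where 44.3% of all tested genes were above 0. In 3 of the 8 all irradiated tumors lay below all controls (VIM, CD44 and AXL), where 15.0% of all genes did. No gene was called among 1 endothelial, 5 macrophage and leukocyte, 5 luminal and 8 basal B markers tested. Ribosomal protein genes took 27.0% of TPM in control tumor 2 and 19.8% to 22.3% in the other 5 tumors. Whether mouse reads were removed is not given in the sources used here, and in such bulk RNA fewer cells of a type and less RNA per cell cannot be told apart. The part of these shifts in the results below was not tested.

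EGFR was among the more abundant of the 8 genes, and its mean was lower after irradiation by an amount that did not pass the test. Its level was 53.2, 41.7 and 56.0 TPM in control tumors 1, 2 and 3, and 39.2, 46.0 and 39.6 TPM in irradiated tumors 1, 2 and 3. Control tumors 1 and 3 lay above all irradiated tumors, while control tumor 2 lay below irradiated tumor 2, so the groups overlapped. The means were 50.3 ± 7.56 and 41.6 ± 3.84 TPM, a log2 difference of -0.26 (SE 0.16, 95% interval -0.63 to 0.11, adjusted p = 0.395). The interval leaves room for a decrease as well as for a small increase. Leaving out control tumor 2 gave -0.39 (adjusted p = 0.131) and leaving out control tumor 3 gave -0.18. With both tumors numbered 2 left out it was -0.46 (adjusted p = 0.174). All 8 basal B markers of the line also had differences below 0, where 44.3% of all tested genes were above 0. The part of these markers in the EGFR level was not tested. The gene (ENSG00000146648) lies on chromosome 7 from 55019021 to 55211628 in GRCh38, and its antisense neighbour EGFR-AS1 overlaps its exons on the other strand. Since the use of strand is unknown, their reads could be mixed.

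Genes were ranked by Pearson correlation of log2(TPM + 1) with EGFR over the 6 tumors. Ranked were those whose mean reached 5 TPM and whose symbol was in plain capitals and no clone, LOC or LINC name. The genes most like EGFR were CDC45, MARCHF6, NUP85, THEM4 and LGALS8, with r from 0.992 to 0.995. High values were not particular to these genes, as 121 of the ranked genes exceeded 0.95, and each value rests on only 6 tumors. CDC45, a component of the replicative helicase, shows the shared shape at 39.5, 22.9 and 39.5 TPM in controls and 20.3, 28.3 and 20.6 TPM in irradiated tumors. Both genes were low in control tumor 2 and, among irradiated tumors, highest in tumor 2. These tumors share their libraries and groups, so the ranking is a description.

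The other ERBB receptors were fewer in transcripts. ERBB2, the preferred partner of EGFR, was at 40.7, 25.4 and 30.8 TPM in controls and 32.7, 34.3 and 34.0 TPM in irradiated tumors (log2 difference 0.083, adjusted p = 0.837). Its irradiated values lay inside the control range. ERBB3, a receptor with little kinase activity of its own, stayed between 0.42 and 1.56 TPM, and ERBB4 at or below 0.49 TPM, and neither was tested. EGFR was thus above ERBB2 in each of the 6 tumors.

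Among the ligands, HBEGF was the most abundant in 5 of the 6 tumors, followed by EREG and AREG, with TGFA and BTC far lower. HBEGF, the heparin-binding ligand that also binds ERBB4, was at 59.7, 63.6 and 76.2 TPM in controls and 60.8, 67.5 and 46.9 TPM in irradiated tumors. The groups overlapped, and the lowest value was that of irradiated tumor 3. The means were 66.5 ± 8.63 and 58.4 ± 10.5 TPM (log2 difference -0.19, SE 0.18, 95% interval -0.60 to 0.21, adjusted p = 0.567). The difference ranged from -0.30 without irradiated tumor 2 to -0.045 without irradiated tumor 3, and was -0.33 without both tumors numbered 2. HBEGF (ENSG00000113070) lies on chromosome 5 from 140332843 to 140346631 in GRCh38.

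AREG, which encodes amphiregulin, varied most among irradiated tumors in TPM. It was at 9.54, 17.8 and 17.6 TPM in controls and at 64.4, 40.9 and 9.81 TPM in irradiated tumors 1, 2 and 3. Irradiated tumors 1 and 2 were above every control, and irradiated tumor 3 was at the level of the lowest control. The control mean was 15.0 ± 4.71 TPM and the irradiated mean 38.3 ± 27.4 TPM, 2.56 times as high, and the difference did not pass the test (log2 difference 1.00, SE 0.59, 95% interval -0.36 to 2.36, adjusted p = 0.378). The value depended on irradiated tumors 1 and 3. Without irradiated tumor 3 the log2 difference was 1.76 (adjusted p = 0.0620), and without irradiated tumor 1 it was 0.46 (adjusted p = 0.738).

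The summed level of the macrophage and leukocyte markers had its highest values in the same irradiated tumors as AREG, mainly through 1 gene. It was 92.1 to 113.8 TPM in controls and 209, 155 and 109 TPM in irradiated tumors 1, 2 and 3. CD68, a lysosomal protein that is abundant in macrophages, made up most of that sum, at 74.9 to 94.2 TPM in controls and 187, 126 and 91.2 TPM in irradiated tumors. ADGRE1, the human gene whose mouse counterpart encodes the macrophage surface protein F4/80, was at 8.97 to 9.37 TPM and at 16.2, 16.9 and 11.8 TPM. The pan-leukocyte gene PTPRC and the macrophage receptors CD14 and MRC1 stayed under 1 TPM in all 6 tumors, and none of the 5 tested genes of the list was called. The other 3 tested genes had differences below 0: CSF1R -0.13, AIF1 -0.42 and LYZ -0.99, the last at 0.31, 1.94 and 0.14 TPM in irradiated tumors 1, 2 and 3. The median of the list was -0.13, and these 3 genes did not have their highest irradiated level in tumor 1. Their part in the AREG levels was not tested.

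EREG, which encodes epiregulin, shared with AREG its low level in irradiated tumor 3, but was highest in irradiated tumor 2 rather than 1. It was at 13.7, 14.8 and 26.5 TPM in controls and 29.4, 32.2 and 13.8 TPM in irradiated tumors. Irradiated tumors 1 and 2 were again above every control, and irradiated tumor 3 lay next to the lowest. The means were 18.3 ± 7.11 and 25.1 ± 9.94 TPM (log2 difference 0.41, SE 0.35, 95% interval -0.40 to 1.22, adjusted p = 0.547). Without irradiated tumor 3 the difference was 0.78 (adjusted p = 0.253), without control tumor 3 it was 0.69, without irradiated tumor 2 it was 0.19, and without both tumors numbered 2 it was 0.073.

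AREG was 0.70, 1.21 and 0.66 times EREG in control tumors 1, 2 and 3, and 2.19, 1.27 and 0.71 times EREG in irradiated tumors 1, 2 and 3. The ratio was highest in irradiated tumor 1, and the ranges of the groups overlapped.

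TGFA, which encodes transforming growth factor alpha, was low in all tumors, and its groups did not overlap. It was at 3.38, 3.49 and 3.01 TPM in controls and 5.67, 6.16 and 4.82 TPM after irradiation. All irradiated tumors were above all controls. The control mean was 3.29 ± 0.25 TPM and the irradiated mean 5.55 ± 0.68 TPM, 1.69 times as high. The log2 difference was 0.61 (SE 0.20, 95% interval 0.16 to 1.06), with an unadjusted p of 0.0143 in limma that did not survive adjustment (adjusted p = 0.135). The difference ranged from 0.54 to 0.69 when single tumors were left out, and its smallest adjusted p over all alternatives was 0.0558, with sample weights. With a pseudocount of 5 TPM in place of 1 it was 0.35. TGFA (ENSG00000163235) lies on chromosome 2 from 70447280 to 70554193 in GRCh38.

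BTC, which encodes betacellulin, was the least abundant ligand in 5 of the 6 tumors. It was at 0.69, 0.86 and 1.02 TPM in controls and 5.78, 2.0 and 1.35 TPM in irradiated tumors 1, 2 and 3. The groups did not overlap, and irradiated tumor 1 stood far above irradiated tumors 2 and 3. The control mean was 0.86 ± 0.17 TPM and the irradiated mean 3.04 ± 2.39 TPM (log2 difference 0.97, SE 0.40, 95% interval 0.063 to 1.88, adjusted p = 0.216). The number of reads behind such low values is unknown. Without irradiated tumor 1 the difference was 0.52 (adjusted p = 0.498), and without irradiated tumor 3 it was 1.28. At so low a level the size also rests on the pseudocount, with 1.47 for 0.1 TPM and 0.42 for 5 TPM.

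**Figure D2:**
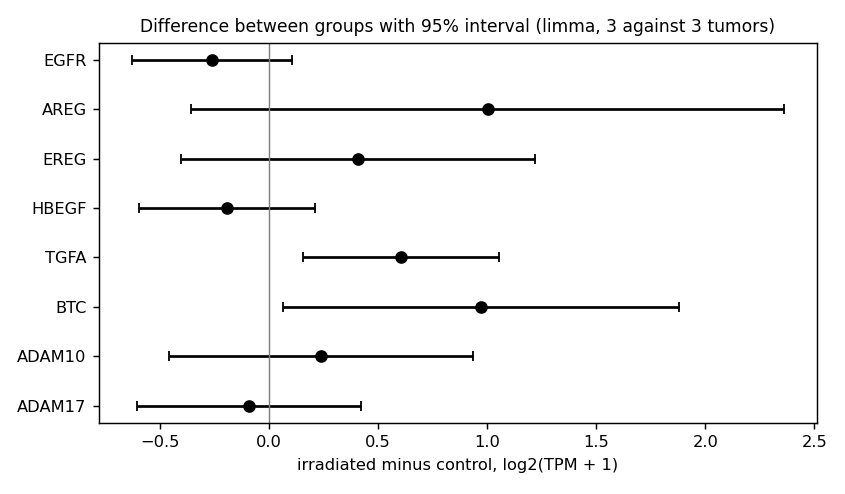
Difference between irradiated and control tumors on the log2(TPM + 1) scale (horizontal axis) for each gene, with its 95% interval from limma over 3 against 3 tumors; the grey line marks no difference. The intervals of TGFA and BTC lie above 0 before adjustment for all genes tested, and that of AREG is the widest, from -0.36 to 2.36.

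The 5 ligands summed to 87.1, 100.5 and 124.4 TPM in control tumors 1, 2 and 3. In irradiated tumors 1, 2 and 3 the sums were 166.0, 148.8 and 76.7 TPM. The sums overlapped, since irradiated tumor 3 had the lowest of all 6. HBEGF took 68.6%, 63.3% and 61.3% of the sum in controls and 36.6%, 45.4% and 61.2% in irradiated tumors. AREG took 11.0%, 17.7% and 14.1% in controls and 38.8%, 27.5% and 12.8% in irradiated tumors. Irradiated tumor 1 was thus the only tumor in which AREG outranked HBEGF, and in irradiated tumor 3 the AREG share lay within the control range. EREG kept a narrower range, from 14.7% to 21.7% over the 6 tumors.

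**Figure D3:**
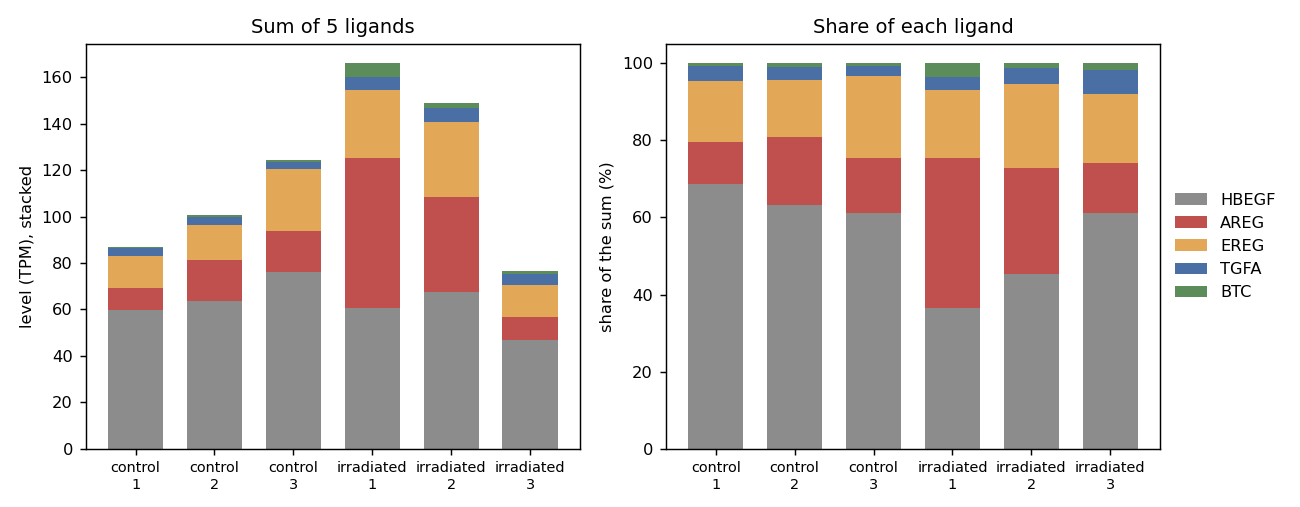
Left, summed level in TPM of the 5 ligands in each tumor, stacked by ligand; right, the share of each ligand in that sum in percent. AREG takes 38.8% in irradiated tumor 1 and 12.8% in irradiated tumor 3, against 11.0% to 17.7% in controls.

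EREG, AREG and BTC are neighbours on chromosome 4 in GRCh38, together with EPGN, which encodes the ligand epigen. EREG (ENSG00000124882) spans 74365143 to 74388751 and AREG (ENSG00000109321) spans 74445134 to 74455009, both on the + strand and 56.4 kb apart. BTC (ENSG00000174808) spans 74744759 to 74794686 on the - strand, 289.7 kb beyond AREG. EPGN, 49.8 kb before EREG, was at or below 0.32 TPM in all 6 tumors. The promoters of the 4 ligands with a higher mean in irradiated tumors are shown here, as the 250 bases before the gene start in RefSeq (GRCh38.p14), at chr4:74444886-74445135 (+ strand), chr4:74364895-74365144 (+ strand), chr4:74794524-74794773 (- strand) and chr2:70553827-70554076 (- strand). Capitals mark the motifs found among a cAMP response element (CRE), an AP-1 site, a GC box and a TATA box, each searched on both strands. None was found in the BTC window, which is in lower case throughout. The gene spans given in this text are from the GENCODE annotation, and its gene starts differ from those of RefSeq. By those spans the TGFA window lies wholly inside the gene and the BTC window partly.
AREG: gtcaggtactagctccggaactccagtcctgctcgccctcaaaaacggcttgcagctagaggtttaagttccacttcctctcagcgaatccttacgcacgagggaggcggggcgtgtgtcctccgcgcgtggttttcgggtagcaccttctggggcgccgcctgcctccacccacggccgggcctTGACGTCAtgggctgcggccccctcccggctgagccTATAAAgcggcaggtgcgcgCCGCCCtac
EREG: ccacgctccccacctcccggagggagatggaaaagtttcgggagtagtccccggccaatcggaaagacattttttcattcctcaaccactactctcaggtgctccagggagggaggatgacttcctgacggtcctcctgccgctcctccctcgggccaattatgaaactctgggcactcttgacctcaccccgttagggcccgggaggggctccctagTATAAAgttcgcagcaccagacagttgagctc
BTC: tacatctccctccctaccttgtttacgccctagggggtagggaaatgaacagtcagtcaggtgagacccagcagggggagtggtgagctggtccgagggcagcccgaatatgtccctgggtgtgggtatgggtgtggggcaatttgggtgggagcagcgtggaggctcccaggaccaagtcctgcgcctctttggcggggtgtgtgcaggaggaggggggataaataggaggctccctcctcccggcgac
TGFA: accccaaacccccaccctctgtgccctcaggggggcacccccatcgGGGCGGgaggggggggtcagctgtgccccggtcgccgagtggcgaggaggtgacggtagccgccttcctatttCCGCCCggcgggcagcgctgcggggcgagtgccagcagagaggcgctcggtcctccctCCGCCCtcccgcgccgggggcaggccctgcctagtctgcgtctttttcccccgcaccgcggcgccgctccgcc

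RefSeq promoters were found for all 8 genes. AREG and EREG each held 1 TATA box (letters TATAAA), starting at position -29 and -32 from the gene start, and the other 6 genes held none, where 10.7% of 35116 promoters did. AREG also held 1 CRE (letters TGACGTCA), at position -65, a motif present in 1.65% of promoters. No AP-1 site (letters TGACTCA) was found in any of the 8, where 4.20% of promoters hold one. GC boxes (letters GGGCGG) were found in HBEGF (5), TGFA and ADAM17 (3 each), EGFR (2) and AREG and ADAM10 (1 each), and 42.6% of promoters hold at least 1. The share of G and C in these promoters ran from 58.0% in EREG, the same as the median of 58.0% over all promoters, to 76.4% in HBEGF. A match is a run of letters in this window, and nothing here shows that a factor binds it. The windows of TGFA, ADAM10 and ADAM17 lie inside the GENCODE spans of these genes, so they are upstream by the RefSeq start only.

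The sheddases ADAM10 and ADAM17 varied between tumors without a difference between groups that passed the test. ADAM10, which also cleaves Notch, was at 57.8, 27.3 and 44.3 TPM in controls and 38.9, 69.4 and 43.0 TPM in irradiated tumors. Its lowest level was in control tumor 2 and its highest in irradiated tumor 2. The means were 43.1 ± 15.3 and 50.4 ± 16.6 TPM (log2 difference 0.24, SE 0.30, 95% interval -0.46 to 0.94, adjusted p = 0.694). Its direction turned when control tumor 2 (-0.051) or irradiated tumor 2 (-0.012) was left out, and the difference was -0.30 with neither.

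ADAM17, the converting enzyme of TNF, was at 24.3, 15.7 and 26.1 TPM in controls and 17.5, 24.1 and 19.5 TPM in irradiated tumors. The irradiated values lay inside the control range. The means were 22.0 ± 5.6 and 20.3 ± 3.38 TPM (log2 difference -0.091, SE 0.22, 95% interval -0.61 to 0.42, adjusted p = 0.854). Its direction turned without control tumor 3 (0.043) or irradiated tumor 1 (0.0073), and it was -0.31 without control tumor 2 and -0.43 without both tumors numbered 2 (adjusted p = 0.240). ADAM10 was above ADAM17 in every tumor, by 1.70 to 2.38 times in controls and 2.21 to 2.89 times in irradiated tumors, ranges that overlapped. ADAM10 (ENSG00000137845) lies on chromosome 15 from 58588807 to 58749978 and ADAM17 (ENSG00000151694) on chromosome 2 from 9488486 to 9556732 in GRCh38. An antisense gene overlaps the exons of ADAM10 on the other strand, and IAH1 and AC073195.1 overlap those of ADAM17, with the same limit as for EGFR.

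In controls the order of mean levels was HBEGF, EGFR, ADAM10, ADAM17, EREG, AREG, TGFA and BTC. The ranges of neighbours in that order overlapped for EGFR and ADAM10, for ADAM17 and EREG, and for EREG and AREG, and were apart for the other 4 pairs. In irradiated tumors the order was HBEGF, ADAM10, EGFR, AREG, EREG, ADAM17, TGFA and BTC. There the ranges overlapped for 6 of the 7 pairs of neighbours, and only ADAM17 and TGFA were apart. AREG stood between EREG and TGFA in controls, apart from TGFA but not from EREG, and between EGFR and EREG in irradiated tumors, where it overlapped both.

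A further 10 lists by role held related receptors and ligands, membrane sheddases with their partners, and genes of signalling, uptake and feedback. They gave 0 called higher and 2 called lower of 109 tested genes (1.83%, against 2.98% of all genes). The unadjusted p was under 0.05 in 19 of them, where it was in 20.5% of all genes, and 25.7% had groups that did not overlap, where 26.6% of all genes did. Their median difference was -0.030. The called genes were BACE2 and PIK3R2.

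Of the other 6 ligands of the family, 2 were tested and 0 called. NRG1, a neuregulin that binds ERBB3 and ERBB4, was at 11.5, 10.7 and 10.9 TPM in controls and 7.22, 7.90 and 5.57 TPM in irradiated tumors, without overlap (log2 difference -0.62, adjusted p = 0.112). NRG2 was at 2.81 ± 0.15 and 3.36 ± 0.78 TPM (0.18, adjusted p = 0.680). EGF itself was at or below 1.55 TPM in all 6 tumors and was not tested.

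Among 13 tested partners and inhibitors of the sheddases 0 were called, and in 4 of the 13 all irradiated tumors lay above all controls, where 11.6% of all genes did (median difference 0.19). Without single tumors 0 to 1 of them rose. TIMP1, a metalloprotease inhibitor that acts on ADAM10, was at 229, 447 and 313 TPM in controls and 593, 610 and 629 TPM in irradiated tumors (log2 difference 0.94, adjusted p = 0.0653). TSPAN15, a tetraspanin that carries ADAM10 to the cell surface, was at 42.3, 30.9 and 39.4 TPM and at 57.7, 52.6 and 61.0 TPM (0.60, adjusted p = 0.0870). Every irradiated tumor was above every control in both genes, and also in FRMD8 and TIMP3. FRMD8 was at 16.5 ± 1.37 and 26.3 ± 7.52 TPM (0.61, adjusted p = 0.150). TIMP3 was at 21.4 ± 5.87 and 41.8 ± 13.0 TPM (0.92, adjusted p = 0.123). Of 7 other membrane sheddases 1 was called: BACE2, an aspartic protease, fell from 35.0 ± 3.77 to 20.4 ± 1.86 TPM (log2 difference -0.75, adjusted p = 0.0433). Leaving out control tumor 2 kept this call, and leaving out any of the other 5 tumors ended it (largest adjusted p = 0.136). It also ended with a replicate block (adjusted p = 0.116), without trend (0.0745), without a filter on low values (0.0855) and without both tumors numbered 2 (0.0952).

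Downstream of the receptor, none of 15 genes of adaptors and early signalling was called. SHC1, the adaptor that links the receptor to GRB2, was at 123.8 ± 18.7 and 185.0 ± 2.10 TPM (log2 difference 0.59, adjusted p = 0.0702), and the kinase SRC at 22.5 ± 3.95 and 30.8 ± 2.32 TPM (0.45, adjusted p = 0.190). Of 10 genes of the RAS to ERK kinases 0 were called. HRAS, which encodes a RAS GTPase, was at 121.5 ± 7.31 and 91.3 ± 7.30 TPM (log2 difference -0.41, adjusted p = 0.123).

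Of 11 genes of the PI3K to AKT kinases 1 was called. PIK3R2, a regulatory subunit of PI3K, fell from 25.4 ± 7.45 to 3.72 ± 1.37 TPM (log2 difference -2.48, adjusted p = 0.00427), a call made in every alternative. Its exons are shared on the same strand with the read-through gene AC007192.1, which joins it to the interferon-induced neighbour IFI30. AC007192.1 was at 35.7, 33.6 and 32.7 TPM in controls and 38.0, 44.5 and 51.5 TPM in irradiated tumors, and IFI30 at 32.6 to 52.5 and 55.4 to 109.4 TPM. PIK3R2 and AC007192.1 together summed to 59.4 ± 8.46 and 48.4 ± 7.11 TPM, with overlapping groups, so the level of PIK3R2 is uncertain. This sum was taken after the values were seen.

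Receptor uptake and feedback gave 0 calls as well, of 19 and of 20 tested genes (median differences -0.079 and -0.022). STAMBP, an enzyme that takes ubiquitin off sorted receptors, was at 52.6 ± 6.42 and 36.9 ± 4.36 TPM (log2 difference -0.50, adjusted p = 0.125), and RAB5A, a GTPase of early endosomes, at 45.6 ± 1.00 and 36.3 ± 1.27 TPM (-0.32, adjusted p = 0.202). The phosphatase PTPN2 was at 21.6 ± 2.88 and 14.8 ± 0.57 TPM (-0.51, adjusted p = 0.127). Of 15 transcriptional targets of ERK 0 were called, with a median of -0.031. DUSP6, the ERK phosphatase that is itself induced by ERK and stands in both the feedback and the target list, was at 175.6, 190.7 and 115.2 TPM in controls and 300, 249 and 216 TPM in irradiated tumors (0.68, adjusted p = 0.123). CCND1, which encodes cyclin D1, was at 133.2 ± 7.12 and 105.2 ± 17.4 TPM (-0.35, adjusted p = 0.243).

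**Figure D4:**
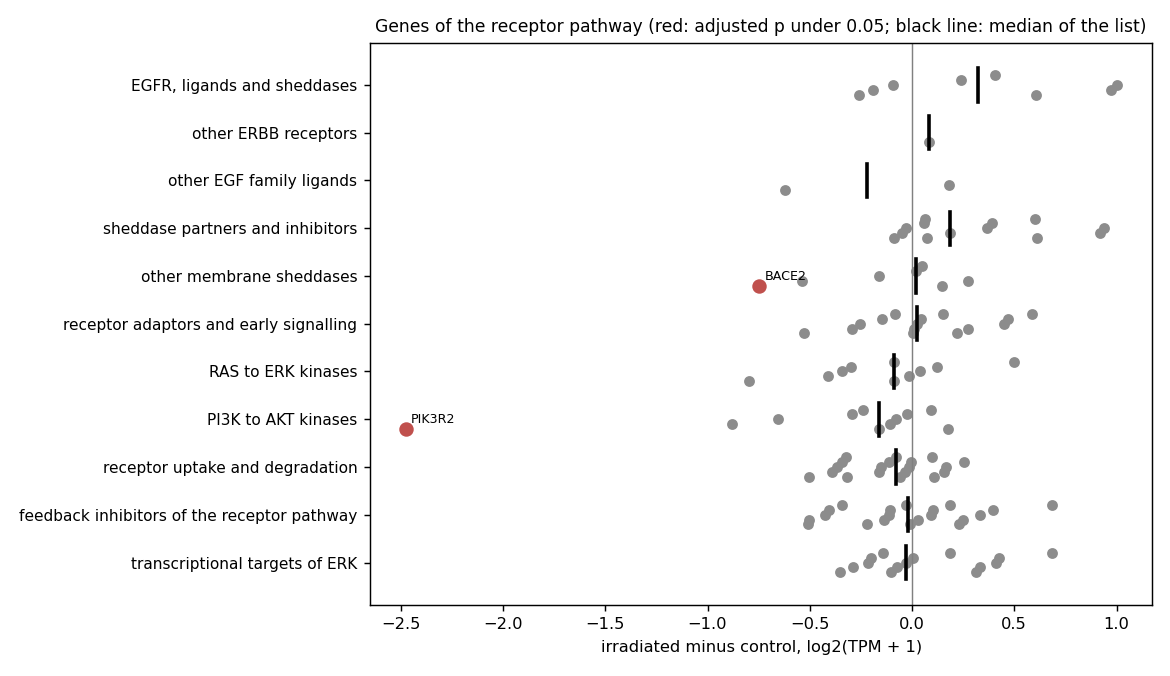
Difference between irradiated and control tumors on the log2(TPM + 1) scale (horizontal axis) for each tested gene, by list (rows); grey points are genes that were not called, red points those called with limma, and black lines the median of each list. BACE2 and PIK3R2 are the called genes, and the medians of the lists lie between -0.22 and 0.32.

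The ranking by likeness was also made for AREG, after its values had been seen. The genes most like it over the 6 tumors were CD55, MFGE8, TMEM120A, ORC4 and XBP1, with r from 0.970 to 0.981, and 12 genes exceeded 0.95. CD55 was at 22.3, 26.1 and 24.0 TPM in controls and at 46.8, 35.9 and 19.5 TPM in irradiated tumors. As with AREG, its highest level was in irradiated tumor 1. In irradiated tumor 3 CD55 lay below every control, while AREG lay just above control tumor 1 and below control tumors 2 and 3.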

How the data were processed

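RNA-seq of 6 tumors, 3 control and 3 irradiated, was available as 1 table with a column for each tumor. The values are TPM per gene, deposited by the authors with 2 decimals. HISAT2, RSEM, StringTie and hg38 are named, without roles, per the submitters' processing notes. Tool versions, the annotation release, strandedness and any removal of mouse reads were not stated there or in the labels. Libraries were made from total RNA with a TruSeq RNA kit, per the labels' protocols. TPM keeps no read depth, so no interval from counts is given and no count test was run. The columns summed to 992259 to 998569 TPM, and 13392 to 14218 genes reached 1 TPM in a tumor.

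Irradiated and control tumors were compared in R 4.3.3 by limma 3.58.1 on log2(TPM + 1), with lmFit and a trended eBayes, over the 14140 genes whose mean reached 1 TPM, two-sided, with group as the sole term. The fit was tested on simulated data. Coordinates are from GENCODE release 29 (GRCh38, the assembly of hg38) and promoters from RefSeq. The members and gene lists were chosen with earlier results of these data known, so list counts are descriptions. Named from each pathway list were the called genes, or else the 2 tested genes with the smallest p, and for EGFR the 5 genes most correlated with it. One gene that this rule names is not reported here. ERBB3, ERBB4, EGF, EPGN and the marker genes were named to give levels. FRMD8 and TIMP3 were named because their groups did not overlap. Alternatives were other pseudocounts, filters, scalings and variance models, a replicate block, and leaving out tumors.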

Additional observations from a re-analysis of the deposited data

How the results depend on the processing

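No gene among EGFR, its 5 ligands and the 2 sheddases was called under any of the 18 alternatives, in which the smallest adjusted p was 0.0558 (TGFA with sample weights). TGFA and BTC could not be tested with a minimum mean of 5 TPM. The direction of EGFR, HBEGF, AREG, EREG, TGFA and BTC was the same in every alternative that tested them. That of ADAM10 turned, with a range of -0.051 to 0.48 without single tumors and -0.30 without control tumor 2 and irradiated tumor 2. That of ADAM17 ranged from -0.31 to 0.043 without single tumors and was -0.43 without both tumors numbered 2, where EGFR was at -0.46 and HBEGF at -0.33. The pseudocount moved BTC from 0.42 (5 TPM) to 1.47 (0.1 TPM) and TGFA from 0.35 to 0.73. The number of genes called among all tested, 421 in the comparison as reported, was 133 without a filter on low values, 279 without trend, 1064 with sample weights, 185 with a replicate block, and 186 without control tumor 2 and irradiated tumor 2. It ranged from 127 (without irradiated tumor 1) to 791 (without control tumor 2) without single tumors. Tumors of the same number did not deviate together (correlations of -0.043, -0.046 and -0.059 for numbers 1, 2 and 3 over the tested genes), the labels tie no tumors together, and the block changed no call among the 8 genes. With 3 tumors per group and unknown read depth, a difference that missed the threshold is not shown to be absent.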
